A study of Mus musculus with 18 samples.

Results

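The genes described are 10 that encode enzymes of prostaglandin and leukotriene synthesis, of 13598 genes that had a value in the RNA-seq of mouse peritoneal macrophages. They are Pla2g4a, Pla2g16, Ptgs1, Ptgs2, Ptges, Ptgis, Alox5, Alox5ap, Lta4h and Ltc4s, listed by name as genes of this pathway. The macrophages came from TLR4-WT mice and from TLR4-K730R and TLR4-K810R mice, in which CRISPR/Cas9 editing had replaced 1 lysine of the TIR domain, the signalling part of TLR4, by arginine. TLR4 is the receptor for bacterial lipopolysaccharide (LPS). Cells of each genotype were left untreated (control) or received 100 ng/mL LPS for 6 h, and each of the 6 groups had 3 libraries. According to the methods, the cells were peritoneal exudate cells drawn out by thioglycollate, and all mice were on the C57BL/6 background. The age and sex of the animals were not given in the sources used here. The mutation was carried by every cell of the mouse, so the macrophages had also developed in mutant animals. The labels do not say that libraries came from separate mice, and all p-values then measure only the spread between these libraries.

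Eicosanoids are short-lived lipid signals made from arachidonic acid, and macrophages are among the cells that make most kinds of them. A phospholipase A2 frees arachidonic acid from membranes. In the cyclooxygenase branch, Ptgs1 (COX-1) or Ptgs2 (COX-2) turns it into prostaglandin H2, from which terminal synthases such as Ptges and Ptgis make prostaglandin E2 and prostacyclin. In the 5-lipoxygenase branch, Alox5, helped by Alox5ap (FLAP), makes leukotriene A4, which Lta4h converts to leukotriene B4 and Ltc4s to leukotriene C4. Ptgs2 and Ptges are textbook examples of enzymes that macrophages induce on contact with LPS, while Ptgs1 is usually described as constitutive.

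The sequences around the start sites of Ptgs2, Ptges and Ltc4s are shown as the inducible enzymes of the prostaglandin E2 route and the leukotriene C4 synthase, which moved in opposite directions with LPS. Of the 10 genes, 8 had RefSeq promoter windows (GRCm38.p6, 250 bases before to 50 after the start), and Alox5ap and Ptgis had none. All are written 5′ to 3′ on the strand of the gene. Capitals mark matches, on either strand, to the C/EBP motif TTNNGNAA, the CRE core TGACG, the AP-1 motif TGANTCA, the TATA motif TATAAA or the kappa B motif.
Ptgs2, chr1:150099781-150100080, plus strand: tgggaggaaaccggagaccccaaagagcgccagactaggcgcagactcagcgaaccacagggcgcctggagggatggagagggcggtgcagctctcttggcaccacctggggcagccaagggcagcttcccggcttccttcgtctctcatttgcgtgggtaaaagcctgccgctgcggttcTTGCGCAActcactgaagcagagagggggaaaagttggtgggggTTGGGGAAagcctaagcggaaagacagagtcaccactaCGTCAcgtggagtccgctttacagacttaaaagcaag
Ptges, chr2:30903248-30903547, minus strand: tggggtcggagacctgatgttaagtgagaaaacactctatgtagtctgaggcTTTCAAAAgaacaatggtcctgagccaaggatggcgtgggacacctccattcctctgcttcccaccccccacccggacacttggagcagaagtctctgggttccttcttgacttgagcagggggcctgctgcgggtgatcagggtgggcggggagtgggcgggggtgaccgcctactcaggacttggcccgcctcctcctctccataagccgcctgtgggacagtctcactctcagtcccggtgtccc
Ltc4s, chr11:50238483-50238782, minus strand: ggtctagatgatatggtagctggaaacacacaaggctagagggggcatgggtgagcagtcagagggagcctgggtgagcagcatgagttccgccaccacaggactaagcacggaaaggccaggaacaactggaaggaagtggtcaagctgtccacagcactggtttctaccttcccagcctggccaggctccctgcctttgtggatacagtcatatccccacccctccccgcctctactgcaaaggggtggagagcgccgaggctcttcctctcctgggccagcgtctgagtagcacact

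Ptgs2 held a pair of C/EBP matches, starting 69 and 25 bases before the start site, and a CRE core 14 bases after it. Ptges held 1 C/EBP match in the window of its RefSeq start, and the Ltc4s window held no match to the capitalised motifs. A far upstream first exon of Ptges, described below, had no window and was not searched. In all, a C/EBP match stood in the windows of 3 of the 8 genes (Ptgs2, Ptges and Pla2g4a), and 40.7% of 32851 RefSeq windows held one. The CRE core stood in 1 of 8 (Ptgs2; 20.8% of all windows), the AP-1 motif in 1 (Pla2g16; 7.81%), and the TATA motif in 1 (Pla2g4a; 13.6%). The kappa B motif (8.46% of all windows) and the interferon-stimulated response element (ISRE, 3.44%) were found in none of the 8. The PU.1 core GAGGAA, left in lower case, stood in 6 of 8, against 28.3% of all windows. A match is a run of letters, and binding was not measured.

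The authors deposited FPKM values, a measure of abundance per length of transcript and per mapped fragments of the library, for transcript events such as first and last exons. For each gene, FPKM was summed over its first exons and over its last exons, and the higher sum was taken as its level. Without read counts the depth of a library cannot be known, and a gene listed at 0 may still be expressed. Differences are given on the scale of log2(FPKM + 1), with the standard error (SE) from limma, and are called at an adjusted p below 0.01. This scale understates changes of genes of a few FPKM. The median of all 9707 genes tested between LPS and control lay at -0.28 (TLR4-WT), -0.36 (TLR4-K730R) and -0.26 (TLR4-K810R), and the LPS differences below are to be read against these shifts. Libraries of a group correlated with r from 0.971 to 0.981 across genes, which are not independent replicates.

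The macrophage label was borne out by Lyz2 (5944 to 13291 FPKM), Cd68 (387 to 771), Csf1r (277 to 538) and Adgre1 (148 to 271 FPKM). The summed level of the 9 macrophage markers listed, mostly Lyz2, was lower with LPS in every genotype, at 13595 to 14883 FPKM in control and 7646 to 9684 in LPS-treated TLR4-WT, 13708 to 14830 and 7804 to 10002 (TLR4-K730R), and 11723 to 14038 and 9322 to 10265 (TLR4-K810R). Single markers differed, since in TLR4-WT the mean of Mrc1 went from 26.9 to 6.22 FPKM and that of Fcgr1 from 50.1 to 318. The part of these shifts in the LPS differences of the 10 genes was not tested. Cd14 had 463 FPKM in 1 library and was listed at 0 in the remaining 17, and Itgam was not listed, so single genes can be missing from these tables. Of the 5 B cell and 6 T cell markers listed, none averaged 1 FPKM over the 18 libraries, and the highest group mean was 1.38 FPKM, of Cd79b in control TLR4-WT. Of 10 neutrophil markers, S100a8 ran from 22.1 FPKM in the lowest control library to 239 in the highest LPS library, while Ly6g stayed at or below 0.644 FPKM. The 9 listed summed to 26.4 to 47.5 FPKM in control and 172 to 245 with LPS, mostly S100a8. The mean of Camp went from 0.327 to 4.51 FPKM in TLR4-WT and from 0 to 4.92 and 4.30 in TLR4-K730R and TLR4-K810R. That of Retnlg went from 2.07 to 0, from 0.0956 to 0 and from 0.347 to 0.177 in TLR4-WT, TLR4-K730R and TLR4-K810R. Ltf went from 0.348 to 0, from 0.309 to 0 and from 0.0714 to 0.0716 in the same order. In bulk RNA, fewer cells of a type and less RNA per cell cannot be told apart.

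With LPS, the genes fell into opposed sets. Both phospholipases, Ptgs2 and Ptges were higher in every genotype, while Ptgs1 and the 4 genes of the leukotriene branch were lower, of which only Alox5 in TLR4-K730R was not called. Of the 10 genes, LPS-treated TLR4-WT macrophages had 4 called higher, where 10.4% of all genes tested were, and 5 called lower, where 23.9% of all genes were. In TLR4-K730R, 4 were called higher (9.32% of all genes) and 4 lower (26.5%). In TLR4-K810R, 4 were called higher (9.08% of all genes) and 5 lower (19.7%). Ptgis, the prostacyclin synthase, was called in none of the genotypes. After median-of-ratios scaling, which removes the shift of all genes, 5 were called higher and 4 lower in TLR4-WT, where 15.5% and 14.2% of all genes were. The counts were 4 and 4 in TLR4-K730R (15.5% and 13.5%) and 4 and 3 in TLR4-K810R (12.4% and 11.7%). The library values of the 4 higher genes and the 5 lower ones did not overlap between LPS and control in any genotype. The share of all genes with such separated libraries was 55.0% (TLR4-WT), 58.8% (TLR4-K730R) and 52.5% (TLR4-K810R). The genes were chosen with earlier results of these data known, so the counts beside these shares are description only.

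**Figure D1:**
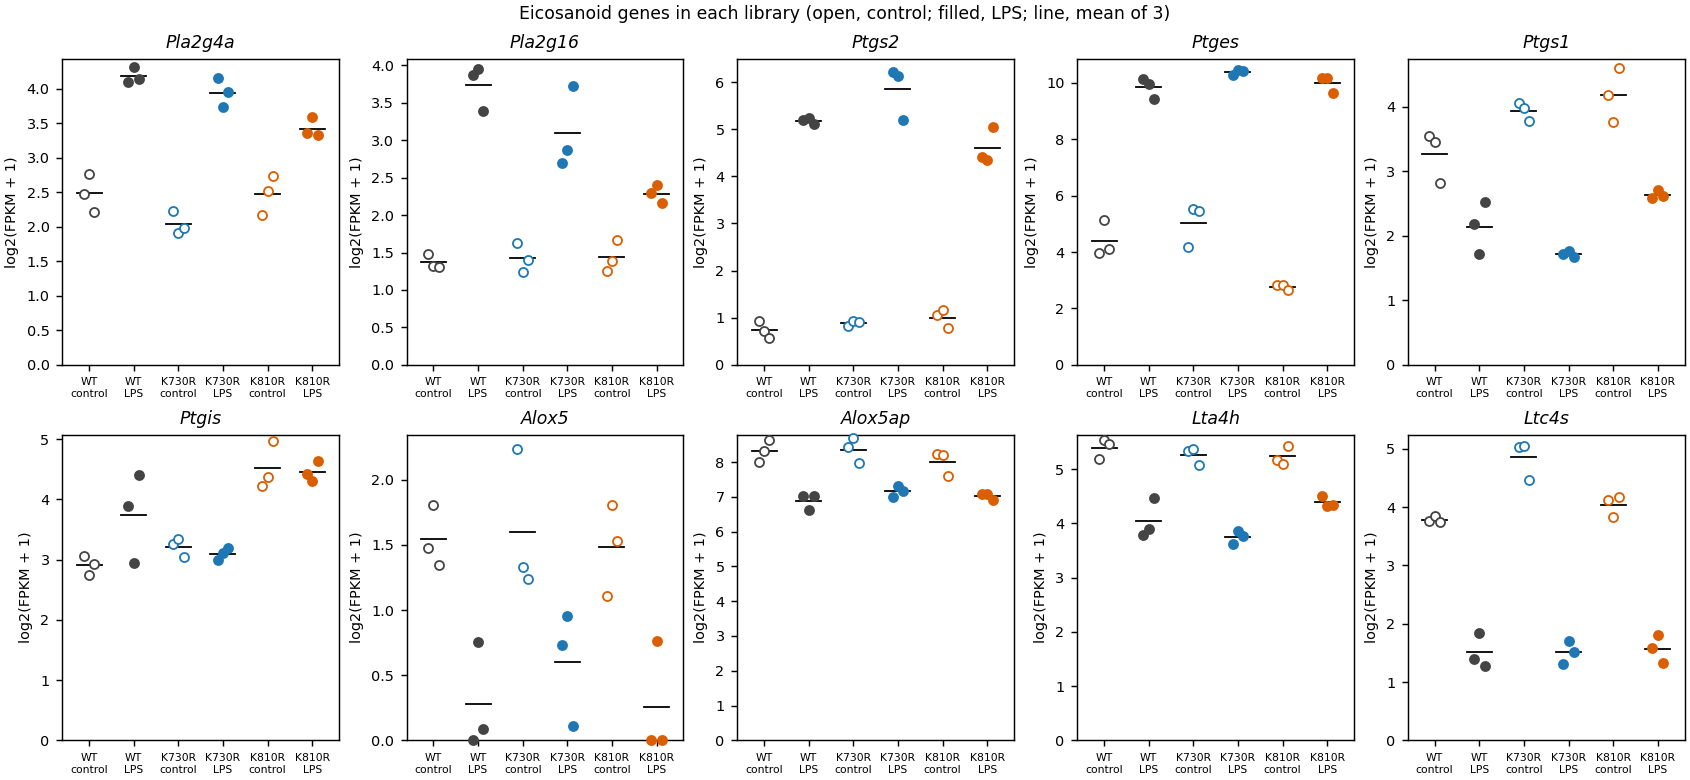
Level of each gene in every library as log2(FPKM + 1), by genotype and treatment. Each point is 1 library (open, control; filled, LPS) and each line the mean of 3. The top row begins with the 4 genes higher with LPS, and the bottom row ends with the 4 leukotriene genes that were lower.

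Between genotypes, few of the 10 genes passed the test. In control cells, 0 were called in TLR4-K730R against TLR4-WT (0.268% of all genes called), 1 in TLR4-K810R against TLR4-WT (Ptgis; 1.58%) and 1 in TLR4-K810R against TLR4-K730R (Ptges; 0.0824%). With LPS, 0 were called in TLR4-K730R against TLR4-WT, where limma called 0% of all genes and 746 of 9707 had an unadjusted p under 0.05. TLR4-K810R against TLR4-WT called 1 (Pla2g16; 0.134%), and TLR4-K810R against TLR4-K730R called 0 (0.0618%). The tests of whether the LPS response differed from that of TLR4-WT called 0 of the 10, and 0.0412% (TLR4-K730R) and 0.124% (TLR4-K810R) of all genes.

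Libraries stood apart between genotypes more often than genes were called. In control cells this held for 2 of the 10 genes between TLR4-K730R and TLR4-WT (16.4% of all genes), for 3 between TLR4-K810R and TLR4-WT (20.8%) and for 3 between the mutants (18.7%). With LPS it held for 1 between TLR4-K730R and TLR4-WT (10.9%), for 4 between TLR4-K810R and TLR4-WT (25.3%) and for 7 between the mutants (25.8%). For Alox5, Alox5ap and Lta4h the 95% intervals of all 4 differences from TLR4-WT included 0, and that of Alox5 was as wide as -0.74 to 0.62 in control TLR4-K810R. The comparisons with TLR4-WT share its libraries.

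Ptgs2 (ENSMUSG00000032487, chromosome 1, 150100031 to 150108227, GRCm38) encodes the inducible cyclooxygenase. In control macrophages it lay at 0.903, 0.637 and 0.477 FPKM in TLR4-WT and at 0.782, 0.894 and 0.887 in TLR4-K730R, while TLR4-K810R had 1.08, 1.25 and 0.713. With LPS it reached 35.6, 36.6 and 33.6 FPKM in TLR4-WT and 72.9, 69.5 and 35.5 in TLR4-K730R, while TLR4-K810R had 20.3, 19.2 and 32.0. The LPS libraries thus stood in the order K810R, WT, K730R, except that the lowest TLR4-K730R library lay within the TLR4-WT range. The rise was 4.45 ± 0.23 (log2, SE) in TLR4-WT (adjusted p = 4.758e-10, limma), 4.96 in TLR4-K730R (adjusted p = 1.116e-10) and 3.60 in TLR4-K810R (adjusted p = 4.860e-09).

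Between genotypes treated with LPS, Ptgs2 was 0.58 lower in TLR4-K810R than in TLR4-WT (95% interval -1.08 to -0.08, adjusted p = 0.173, limma) with all 3 libraries below those of TLR4-WT. It was 0.67 higher in TLR4-K730R than in TLR4-WT (0.17 to 1.16, adjusted p = 0.566), with overlapping libraries. TLR4-K810R against TLR4-K730R gave -1.25 (-1.75 to -0.75, adjusted p = 0.0265), with libraries apart. None of these passed 0.01. The last difference passed without the third TLR4-K730R library, where it was -1.58, and with the libraries scaled to a common median ratio, where it was -1.46.

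Ptgs1 (ENSMUSG00000047250, chromosome 2, 36230426 to 36252272) encodes the constitutive cyclooxygenase and moved the other way. Control libraries held 10.6, 9.92 and 6.02 FPKM in TLR4-WT and 15.7, 14.8 and 12.7 in TLR4-K730R, while TLR4-K810R had 17.1, 12.6 and 23.1. All 6 control libraries of the mutants lay above those of TLR4-WT. With LPS the values were 3.55, 2.28 and 4.72 FPKM in TLR4-WT and 2.29, 2.38 and 2.20 in TLR4-K730R, while TLR4-K810R had 5.01, 5.50 and 5.14. The difference was -1.13 ± 0.23 in TLR4-WT (adjusted p = 7.387e-04, limma), -2.22 in TLR4-K730R (adjusted p = 8.129e-07) and -1.54 in TLR4-K810R (adjusted p = 4.999e-05). The TLR4-WT call was lost when only the 2 TLR4-WT groups were fitted. The higher control level was not called in TLR4-K730R (0.67, 95% interval 0.19 to 1.15, adjusted p = 0.428) or in TLR4-K810R (0.91, 0.43 to 1.39, adjusted p = 0.0364). Control TLR4-K810R libraries also had a high summed level of the 11 listed of 12 markers of mesothelium and fibroblasts, 146, 131 and 313 FPKM. This stood against 35.9 to 53.1 in control TLR4-WT and 67.2 to 80.1 in control TLR4-K730R. The part of this marker level in the Ptgs1 values was not tested.

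The ratio of Ptgs2 to Ptgs1 in FPKM, which is per length of transcript, gives the balance of both cyclooxygenase messages. In control libraries it ran from 0.0309 to 0.0994, so Ptgs1 was the more abundant message in all 9. With LPS it was 10.02, 16.0 and 7.12 in TLR4-WT and 31.8, 29.2 and 16.2 in TLR4-K730R, while TLR4-K810R had 4.05, 3.50 and 6.21. Ptgs2 was the more abundant in all 9 LPS libraries, and the 3 genotypes did not overlap. The ratio was not tested.

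Ptges (ENSMUSG00000050737, chromosome 2, 30889471 to 30929863), the inducible synthase of prostaglandin E2, had the largest difference of the 10 genes in every genotype on this scale. With a pseudocount of 0.1 in place of 1, Ptgs2 came first in TLR4-WT (5.55 against 5.50) and in TLR4-K730R (5.89 against 5.40, and with 0.5 also first there). Control libraries held 14.6, 34.5 and 16.2 FPKM in TLR4-WT and 16.9, 44.8 and 42.5 in TLR4-K730R, while TLR4-K810R had 6.09, 6.02 and 5.23. With LPS they held 1120, 998 and 684 FPKM in TLR4-WT and 1255, 1402 and 1377 in TLR4-K730R, while TLR4-K810R had 1166, 1163 and 804. The 3 control libraries of TLR4-K810R lay below all other control libraries, while with LPS TLR4-K810R and TLR4-WT overlapped and TLR4-K730R lay above both. The rise was 5.43 ± 0.34 in TLR4-WT (adjusted p = 2.757e-09, limma), 5.35 in TLR4-K730R (adjusted p = 2.931e-09) and 7.25 in TLR4-K810R (adjusted p = 1.035e-10).

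In control macrophages Ptges was lower in TLR4-K810R than in TLR4-K730R, at -2.28 ± 0.34 (adjusted p = 0.00660, limma). The call was lost without any 1 of 5 libraries, TLR4-K730R libraries 2 and 3 and each of TLR4-K810R, with values from -2.31 to -2.04. Against TLR4-WT the control difference of TLR4-K810R was -1.65 (95% interval -2.36 to -0.93) and narrowly missed the threshold (adjusted p = 0.0108). It was called with a pseudocount of 0.5 in place of 1. The LPS rise in TLR4-K810R exceeded that in TLR4-WT by 1.82 (0.80 to 2.83), which was not called (adjusted p = 0.111), and with LPS both differed by 0.17 (-0.55 to 0.89, adjusted p = 0.817).

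All listed Ptges expression came from first exons, since no last exon of the gene was listed. A far upstream first exon of 560 bases lay 27024 bases from the first exon at the RefSeq start, and it reached 458 bases past the GENCODE end of the gene. The upstream exon held 14.1, 24.4 and 15.8 FPKM in control TLR4-WT libraries and 814, 695 and 282 with LPS. The exon at the RefSeq start, whose promoter is printed above, held 0.512, 9.9997 and 0.369 FPKM in the controls and 287, 300 and 374 with LPS. In TLR4-K810R it held 0.116, 0.190 and 0.0984 FPKM in the controls and 294, 299 and 131 with LPS. Single exons were not tested. The upstream exon carried 41.2% to 98.1% of the Ptges value across libraries. Control TLR4-K810R libraries had 98.1%, 96.8% and 98.1%, and the third control TLR4-WT library had 97.7%. Control libraries were of 2 kinds for the RefSeq-start exon. It was at 9.9997 to 12.5 FPKM in 1 TLR4-WT and a pair of TLR4-K730R libraries, and at or below 0.997 FPKM in the other 6.

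**Figure D2:**
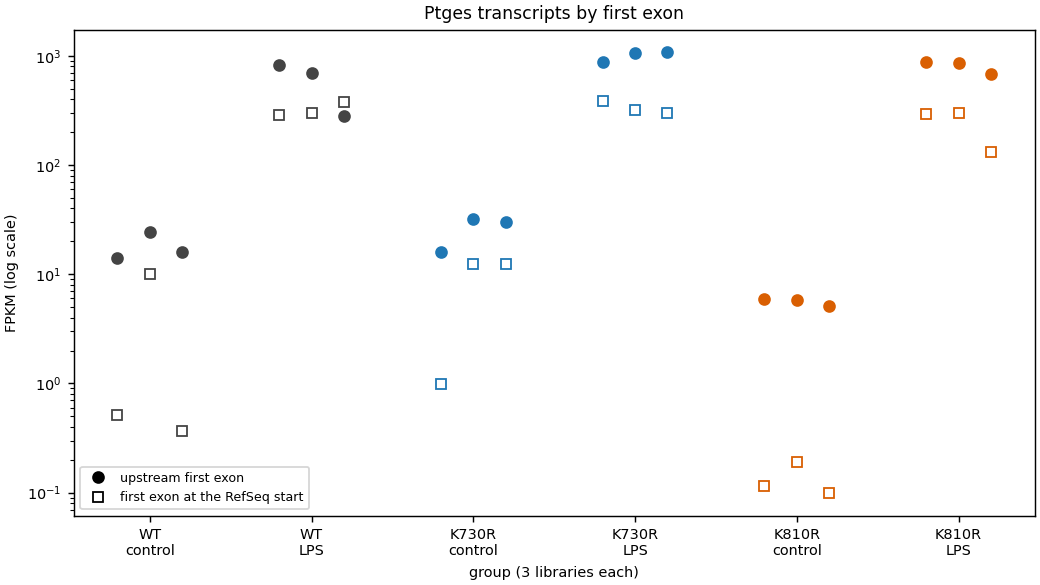
FPKM of the Ptges first exons in every library on a log axis, by group (circles, upstream exon; open squares, exon at the RefSeq start). Both exons are far higher with LPS in all 3 genotypes, and the open squares spread widely among control libraries and are lowest in control TLR4-K810R.

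Both phospholipases rose with LPS, and both had their lowest LPS levels in TLR4-K810R. Pla2g4a (ENSMUSG00000056220, chromosome 1, 149829618 to 149961290) encodes cytosolic phospholipase A2, the main enzyme that frees arachidonic acid in activated macrophages. It lay between 2.74 and 5.81 FPKM in the 9 control libraries. With LPS it held 16.0, 18.8 and 16.6 FPKM in TLR4-WT and 16.7, 12.2 and 14.4 in TLR4-K730R, while TLR4-K810R had 9.20, 10.97 and 9.05. The rise was 1.70 ± 0.17 in TLR4-WT (adjusted p = 7.556e-07, limma), 1.90 in TLR4-K730R (adjusted p = 1.991e-07) and 0.95 in TLR4-K810R (adjusted p = 3.581e-04). With LPS, TLR4-K810R was lower than TLR4-WT, at -0.76 (95% interval -1.12 to -0.39), with libraries apart, which was not called (adjusted p = 0.0382).

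Pla2g16 (ENSMUSG00000060675, chromosome 19, 7557459 to 7588545) encodes a phospholipase and acyltransferase best known from fat tissue. It lay between 1.37 and 2.18 FPKM in the control libraries. With LPS it held 13.7, 14.5 and 9.45 FPKM in TLR4-WT and 5.50, 6.33 and 12.2 in TLR4-K730R, while TLR4-K810R had 3.92, 4.30 and 3.47. The third TLR4-K730R library, which had the lowest Ptgs2 of its group, had the highest Pla2g16. The rise was 2.37 ± 0.23 in TLR4-WT (adjusted p = 4.138e-07, limma), 1.68 in TLR4-K730R (adjusted p = 1.697e-05) and 0.85 in TLR4-K810R (adjusted p = 0.00710). In TLR4-K810R the rise was no longer called without any 1 of 5 of its 6 libraries, all but the third control one, with values from 0.76 to 0.91, nor with no filter, with the replicate block or with last-exon sums (adjusted p from 0.0123 to 0.0189, limma).

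With LPS, Pla2g16 was lower in TLR4-K810R than in TLR4-WT, at -1.45 ± 0.23 (adjusted p = 0.00850, limma), the only one of the 10 genes called in this comparison. The call was lost without the first or second TLR4-WT library or without any 1 of the TLR4-K810R libraries, with values from -1.51 to -1.34, and under 7 other alternatives. The test of the response itself gave -1.52 (95% interval -2.20 to -0.83) for the rise in TLR4-K810R against that in TLR4-WT, which was not called at 0.01 (adjusted p = 0.0447). Of the 10 genes, 3 (Ptgs2, Pla2g4a and Pla2g16) had all LPS libraries of TLR4-K810R below those of TLR4-WT, as had 7.89% of all genes. These 3 were among the 4 LPS-induced genes, and Ptges did not have its libraries apart. The share among LPS-induced genes alone was not computed.

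**Figure D3:**
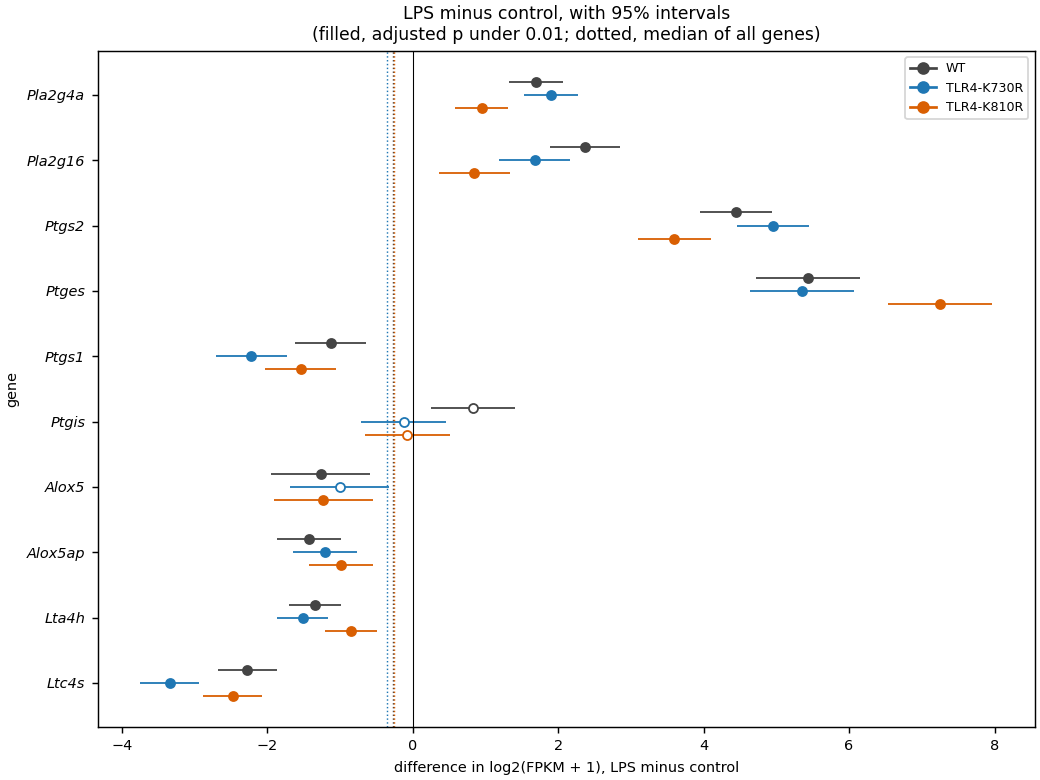
Difference in log2(FPKM + 1) between LPS and control for each gene in 3 genotypes, with 95% intervals from limma (filled, called at adjusted p below 0.01; dotted lines, median of all genes). The phospholipases, Ptgs2 and Ptges lie to the right of 0, the leukotriene genes and Ptgs1 to the left, and Ptgis near or above 0.

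In each genotype, the 4 genes of the leukotriene branch were lower in every LPS library than in every control library. Alox5 (ENSMUSG00000025701, chromosome 6, 116410077 to 116461178), the 5-lipoxygenase that starts the branch, was low. Control libraries held 1.78, 2.51 and 1.55 FPKM in TLR4-WT and 3.70, 1.52 and 1.36 in TLR4-K730R, while TLR4-K810R had 1.16, 2.50 and 1.89. With LPS it was listed at 0, 0.683 and 0.0607 FPKM in TLR4-WT and at 0.664, 0.939 and 0.0770 in TLR4-K730R, while TLR4-K810R had 0, 0.698 and 0. Every control library thus lay above 1 FPKM and every LPS library below it. The differences were -1.27 ± 0.32 in TLR4-WT (adjusted p = 0.00432, limma), -1.003 in TLR4-K730R (adjusted p = 0.0170, not called) and -1.23 in TLR4-K810R (adjusted p = 0.00607). In TLR4-K730R it was called with the replicate number as a block (adjusted p = 0.00953, limma), with last-exon sums (-1.55, adjusted p = 2.815e-04) and at a threshold of 0.05. The calls in TLR4-WT and TLR4-K810R were lost in 6 of 18 alternatives each, 4 of them leaving out 1 library, with values of -1.30 to -1.13 in TLR4-WT (without control library 1 or 2, or LPS library 1 or 3) and of -1.20 to -1.07 in TLR4-K810R (without control library 2 or 3, or LPS library 1 or 3).

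Alox5ap (ENSMUSG00000060063, chromosome 5, 149264767 to 149288153), which presents arachidonic acid to Alox5, was abundant. In FPKM, a level per length, its lowest control library stood at 194, against 3.70 in the highest library of Alox5. Control libraries held 257, 320 and 395 FPKM in TLR4-WT and 341, 410 and 250 in TLR4-K730R, while TLR4-K810R had 298, 292 and 194. With LPS the values were 129, 97.5 and 130 in TLR4-WT and 126, 158 and 142 in TLR4-K730R, while TLR4-K810R had 134, 135 and 119. The difference was -1.43 ± 0.21 in TLR4-WT (adjusted p = 3.324e-05, limma), -1.20 in TLR4-K730R (adjusted p = 1.727e-04) and -0.99 in TLR4-K810R (adjusted p = 0.00115). With median-of-ratios scaling the last became -0.71 and was no longer called (adjusted p = 0.0155).

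Lta4h (ENSMUSG00000015889, chromosome 10, 93453411 to 93484875), the leukotriene A4 hydrolase, lay between 32.7 and 45.6 FPKM in the 9 control libraries. With LPS it held 12.8, 13.9 and 21.2 FPKM in TLR4-WT and 11.2, 13.5 and 12.6 in TLR4-K730R, while TLR4-K810R had 21.7, 18.9 and 19.2. The difference was -1.34 ± 0.17 in TLR4-WT (adjusted p = 6.246e-06, limma), -1.51 in TLR4-K730R (adjusted p = 1.614e-06) and -0.85 in TLR4-K810R (adjusted p = 6.474e-04). TLR4-K810R lay above TLR4-K730R with LPS by 0.64 (95% interval 0.29 to 0.99), with libraries apart, and this was not called (adjusted p = 0.0641).

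Ltc4s (ENSMUSG00000020377, chromosome 11, 50236461 to 50238616), the leukotriene C4 synthase, had the largest difference of the branch on this scale. With a pseudocount of 0.1 that of Alox5 was larger in TLR4-WT (-3.11 against -2.74) and in TLR4-K810R (-3.22 against -2.92). Control libraries held 12.5, 13.4 and 12.4 FPKM in TLR4-WT and 31.9, 32.2 and 21.02 in TLR4-K730R, while TLR4-K810R had 16.4, 13.2 and 17.1. With LPS the 9 libraries of all genotypes lay between 1.42 and 2.59 FPKM, and the genotypes overlapped. The difference was -2.28 ± 0.19 in TLR4-WT (adjusted p = 8.724e-08, limma), -3.34 in TLR4-K730R (adjusted p = 9.623e-10) and -2.47 in TLR4-K810R (adjusted p = 3.700e-08). The control level of TLR4-K730R was 1.07 above that of TLR4-WT (95% interval 0.66 to 1.47), with libraries apart, and narrowly missed the threshold (adjusted p = 0.0152). It was called without the third TLR4-K730R library, where it was 1.26. A gene on the other strand overlaps Ltc4s, and the strand used in counting is not given in the sources used here. Mast cells and eosinophils are rich in Ltc4s. The summed level of the mast cell markers listed other than Hdc was 4.70 to 5.25 FPKM in control TLR4-WT and 0.494 to 2.58 in control TLR4-K730R. With LPS it was 1.47 to 4.61 FPKM in TLR4-WT, below the controls, and 0.504 to 2.51 in TLR4-K730R, where it overlapped them, as it did in TLR4-K810R (0.797 to 2.64 in control and 0.672 to 2.09 with LPS). Of 8 eosinophil markers 4 were listed, Epx and Prg2 not among them, and only Ear2 averaged at least 1 FPKM. The summed level of the 4, mostly Ear2 and Siglecf, was lower with LPS in every genotype with no overlap. In TLR4-WT it was 2.91 to 4.96 FPKM in control and 1.78 to 2.72 with LPS. The values were 2.61 to 5.48 and 1.54 to 2.47 in TLR4-K730R, and 2.70 to 4.75 and 0.731 to 1.72 in TLR4-K810R. Among all genes tested, 55.0% (TLR4-WT), 58.8% (TLR4-K730R) and 52.5% (TLR4-K810R) had libraries apart between LPS and control, either way. From control TLR4-WT to control TLR4-K730R, the means of the 4 went from 0.706 to 1.62 FPKM for Siglecf, from 2.29 to 2.26 for Ear2, from 0.644 to 0.0816 for Ccr3 and from 0.00735 to 0 for Ear6. The part of mast cells and eosinophils in the Ltc4s values was not tested.

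Ptgis (ENSMUSG00000017969, chromosome 2, 167191805 to 167240604), best known from vessel walls and stromal cells, was called between genotypes but not with LPS. Control libraries held 7.34, 5.73 and 6.65 FPKM in TLR4-WT and 8.59, 9.15 and 7.29 in TLR4-K730R, while TLR4-K810R had 17.7, 19.7 and 30.2. With LPS they held 13.9, 6.67 and 20.2 FPKM in TLR4-WT and 6.97, 7.59 and 8.11 in TLR4-K730R, while TLR4-K810R had 20.4, 18.7 and 23.8. Control TLR4-K810R was higher than control TLR4-WT by 1.61 ± 0.27 (adjusted p = 0.00333, limma), the only one of the 10 genes called there. The call was lost without any 1 of the TLR4-WT control libraries or without the third TLR4-K810R library, with values from 1.39 to 1.68, and with only the compared groups in the fit.

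The LPS difference of Ptgis in TLR4-WT was 0.83 (95% interval 0.25 to 1.41, adjusted p = 0.0205) and rested on libraries 1 and 3, which lay above all controls. It was called, at 1.12, with median-of-ratios scaling, and at 1.23 without the second LPS library. Markers of mesothelium and fibroblasts went with Ptgis in control cells and in LPS-treated TLR4-WT, but not from control to LPS in the mutants. Of 12 such markers 11 were listed and 9 averaged at least 1 FPKM, led by Col1a2 and Col1a1. In control cells their summed level was lowest in TLR4-WT and highest in TLR4-K810R, with the values given for Ptgs1. In LPS-treated TLR4-WT it was 109, 45.8 and 151 FPKM in the libraries with 13.9, 6.67 and 20.2 FPKM of Ptgis. It was 51.0 to 52.1 in LPS-treated TLR4-K730R and 110 to 129 in LPS-treated TLR4-K810R. In both mutants the sum was thus below all their controls, while Ptgis overlapped between control and LPS libraries. The part of these cells in the Ptgis values was not tested.

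**Figure D4:**
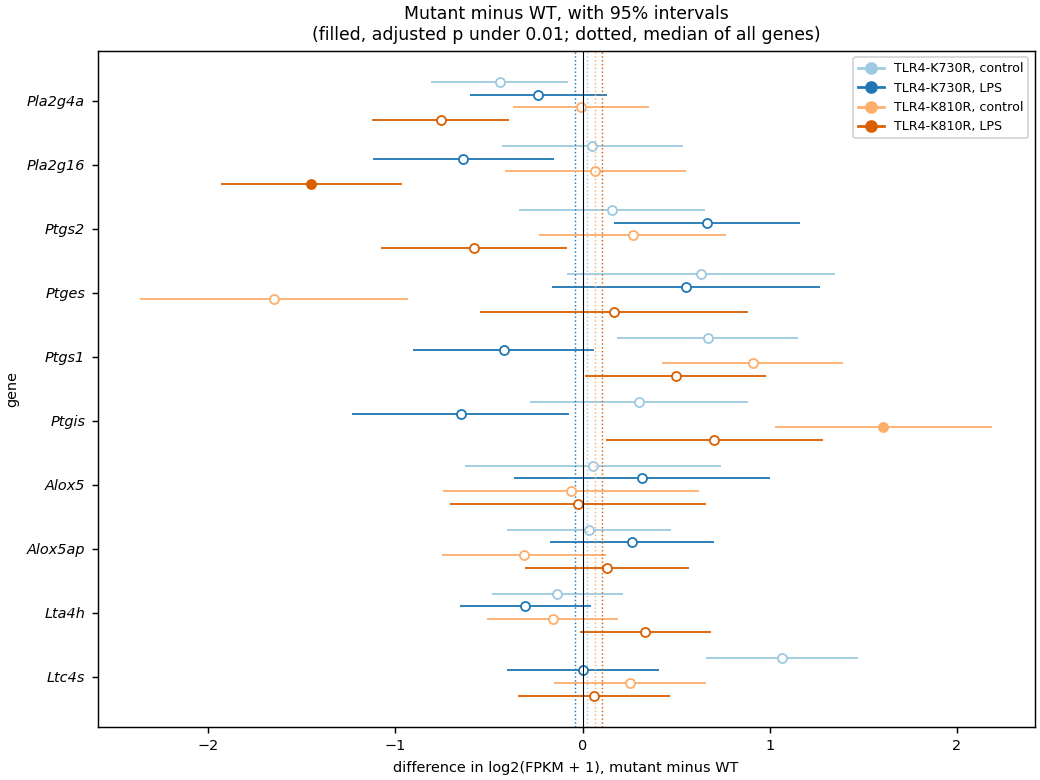
Difference in log2(FPKM + 1) between each mutant and TLR4-WT for each gene, in control and LPS macrophages, with 95% intervals from limma (filled, called at adjusted p below 0.01; dotted lines, median of all genes). Filled points are Pla2g16 with LPS and Ptgis in control cells, both in TLR4-K810R.

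The wider pathway was described by 76 other genes in 5 lists, of which 45 passed the filter of at least 1 FPKM in at least 3 libraries. With LPS, 3 were called higher and 22 lower in TLR4-WT, where 10.4% and 23.9% of all genes were, 3 and 23 in TLR4-K730R (9.32% and 26.5%), and 5 and 19 in TLR4-K810R (9.08% and 19.7%). Their median differences were -0.75, -0.79 and -0.55, below the medians of all genes. After median-of-ratios scaling, 44 of these genes were tested, with 7 called higher and 16 lower in TLR4-WT, where 15.5% and 14.2% of all genes were, 8 and 16 in TLR4-K730R (15.5% and 13.5%), and 8 and 18 in TLR4-K810R (12.4% and 11.7%). Calls that this scaling ended or added are named with each list. No gene of the 5 lists was called in any comparison between genotypes.

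Among 15 genes of fatty acid release, Pla2g7, which cleaves platelet-activating factor, was called higher, by 1.28 (TLR4-WT), 1.46 (TLR4-K730R) and 1.06 (TLR4-K810R), and no other gene of the list was. After median-of-ratios scaling Acsl4, which couples arachidonic acid to coenzyme A, was called higher too, by 0.62, 0.53 and 0.58, and so was Plaa in TLR4-WT (0.64). Daglb, a diacylglycerol lipase that feeds the endocannabinoid 2-arachidonoylglycerol, had the largest difference of these genes on the log2(FPKM + 1) scale, at -4.00, -4.09 and -3.57. Pla2g15, a lysosomal phospholipase, was called lower, at -1.92, -2.27 and -2.23, and Pld4, a lysosomal exonuclease of the phospholipase D family, at -1.11, -1.002 and -1.36. Mgll, the monoacylglycerol lipase, was called lower in TLR4-WT (-1.03) and TLR4-K730R (-0.82), and stood at -0.50 in TLR4-K810R. Pla2g2e was called lower in both mutants, Pla2g12a in TLR4-WT and TLR4-K730R, and Anxa1 in all 3 genotypes. The same scaling ended the calls of Anxa1 in all genotypes, of Mgll and Pld4 in TLR4-K730R (adjusted p = 0.0149 and 0.0375, limma) and of Pla2g12a in TLR4-WT (0.0326).

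Of 8 terminal prostanoid synthases other than Ptges and Ptgis, none was called higher, and 6 were called lower in TLR4-WT and in TLR4-K730R and 5 in TLR4-K810R. Hpgds, the haematopoietic prostaglandin D synthase, was called lower, at -2.54 (TLR4-WT), -2.93 (TLR4-K730R) and -3.08 (TLR4-K810R). Tbxas1, the thromboxane synthase, was called lower, at -0.95, -1.26 and -0.89. Fam213b, a prostamide and prostaglandin F synthase, was called lower, at -1.93, -2.03 and -1.56, Cbr1, a carbonyl reductase, at -1.71, -1.48 and -1.43, and Akr1b3, an aldose reductase, at -0.83, -0.94 and -0.76. Cbr3 was called lower in TLR4-WT and TLR4-K730R. Ptges3, another prostaglandin E synthase, was at 0.35 in TLR4-WT and not called, and it was called higher in both mutants after median-of-ratios scaling, while Cbr3 was no longer called in TLR4-K730R (adjusted p = 0.0165, limma).

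The 5 further genes tested of the lipoxygenase and leukotriene list were all called lower in TLR4-WT, and 4 of them after median-of-ratios scaling. Mgst3 and Mgst2, microsomal glutathione transferases related to Ltc4s, were called lower, at -1.73 and -1.17 in TLR4-WT, at -2.13 and -1.35 in TLR4-K730R and at -1.90 and -1.48 in TLR4-K810R. Mgst2 was no longer called in TLR4-WT (adjusted p = 0.0205, limma) and TLR4-K730R (0.0104) after that scaling. Gpx4, which reduces lipid peroxides, was called lower, at -1.31, -1.73 and -1.03, and Cotl1, a partner of Alox5, at -1.22, -1.38 and -0.93. Alox15, the 12/15-lipoxygenase, was called lower, at -1.19 in TLR4-WT and stood at 0.08 in TLR4-K730R and -0.61 in TLR4-K810R.

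Of 6 receptors tested, Ltb4r1, the high-affinity receptor for leukotriene B4, was called higher by 1.09 (TLR4-WT), 0.83 (TLR4-K730R) and 1.49 (TLR4-K810R). Ptger2, a receptor for prostaglandin E2, was called lower, at -1.34, -1.44 and -1.28, and Ptger4, another, at -0.71 and -0.78 in TLR4-WT and TLR4-K730R, but after median-of-ratios scaling Ptger4 was at -0.43 in both and not called (adjusted p = 0.0206 and 0.0213, limma). The prostacyclin receptor Ptgir was called higher in TLR4-K810R (0.79) and was at 0.18 in TLR4-WT and 0.34 in TLR4-K730R, and was called in these too after median-of-ratios scaling. Among 11 genes of export and inactivation, Abcc1, which exports leukotriene C4, was called higher by 0.79, 1.34 and 1.24. Ptgr2 and Cyp4f18, which inactivate prostaglandins and leukotriene B4, were called lower, at -1.16 and -1.07 in TLR4-WT, at -1.998 and -1.09 in TLR4-K730R and at -1.57 and -1.28 in TLR4-K810R. Ephx1, an epoxide hydrolase, was called lower, at -1.09, -1.54 and -1.39. Ptgr1 was called higher in TLR4-K810R (1.12), and Cyp4f16 was called lower in both mutants. Median-of-ratios scaling ended the calls of Ptgr2 and Ephx1 in TLR4-WT (adjusted p = 0.0276 and 0.0129, limma) and of Cyp4f16 in TLR4-K730R (0.0726). It added Ptgr1 in TLR4-K730R (0.94) and the exporter Abcc4 in all 3 genotypes, higher by 0.66 (TLR4-WT), 0.78 (TLR4-K730R) and 0.68 (TLR4-K810R).

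**Figure D5:**
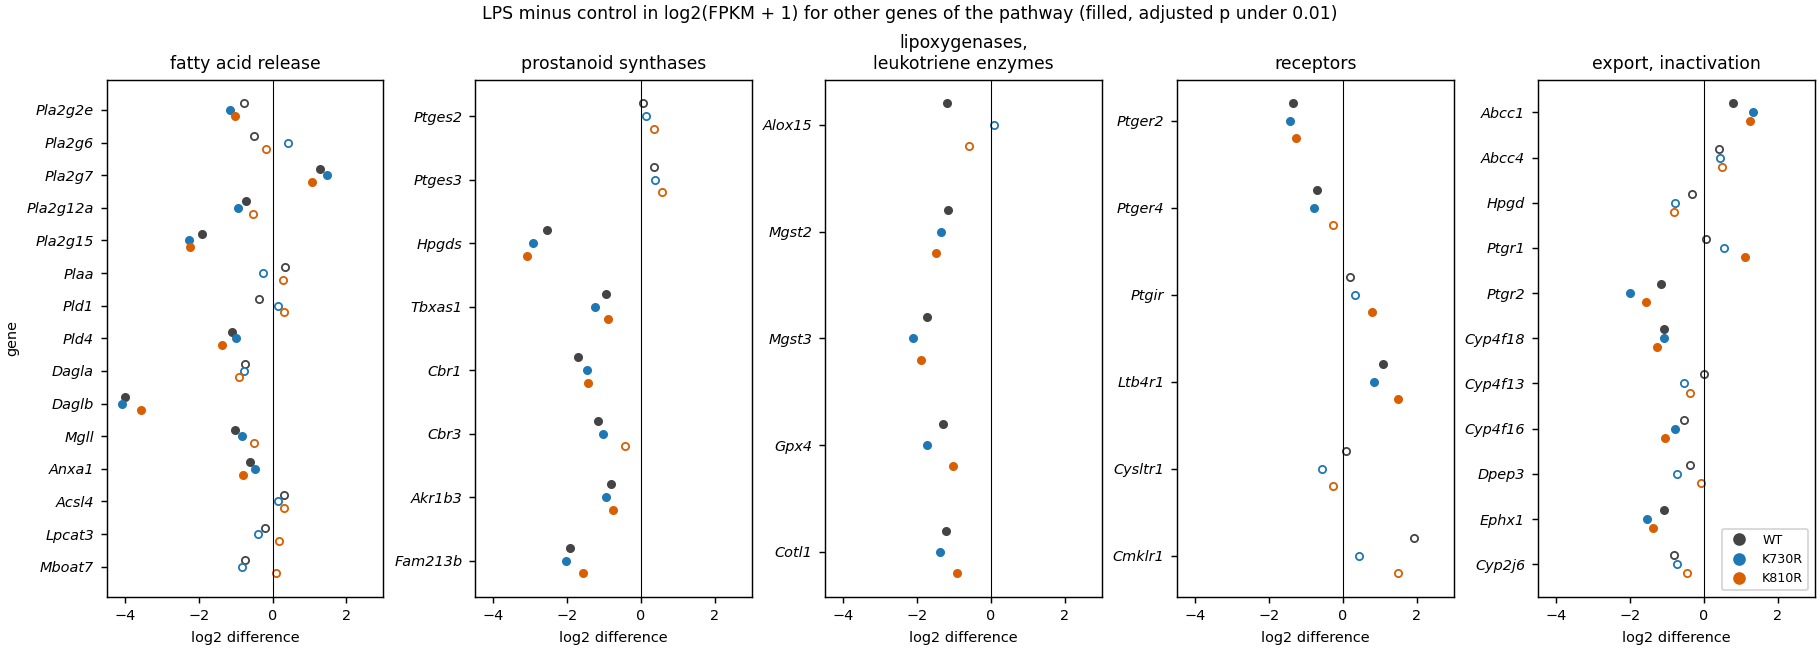
Difference in log2(FPKM + 1) between LPS and control for the 45 other pathway genes tested, in 5 lists and 3 genotypes (filled, called at adjusted p below 0.01). Most points lie left of 0, with Daglb near -4 and Hpgds near -3, while Pla2g7, Ltb4r1 and Abcc1 are filled to the right in all genotypes.

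For 4 of the genes, those most like them over the 18 libraries were found as the root mean square difference between log2(FPKM + 1) values, each centred on the gene's mean. For Ptgs2, whose own values had an SD of 2.28, these were Tnfsf15 (0.35), 6530402F18Rik (0.35) and the chemokine gene Ccl4 (0.36). For Ptges (SD 3.20) they were Tarm1 (0.70), Ifi206 (0.76) and Slc7a2 (0.80). For Ptgs1 (SD 0.96) they were Enc1 (0.25), Rnase4 (0.27) and Gcsh (0.28). For Ltc4s (SD 1.44) they were Gm20703 (0.34), Rin3 (0.35) and Gas6 (0.35). All share the libraries and their scaling.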

How the data were processed

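RNA-seq was measured in 18 libraries of mouse peritoneal macrophages, and groups and replicate numbers follow the sample titles. The authors deposited FPKM values per library, 1 row per transcript event of 20 kinds (80071 to 90401 rows), with an Ensembl gene number and only rows above 0. The aligner and counting program are not given in the sources used here. The labels name hg18, a human build, but the coordinates match GRCm38, and 14126 of 14138 Ensembl numbers were in GENCODE M21. Only first-exon and last-exon events that overlap the gene they name, on its own strand, were used, which left out 6.24% of their FPKM, and the larger of both sums was the value of a gene. The depth is unknown, so no counting interval can be given.

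Genes of at least 1 FPKM in at least 3 libraries (9707, all 10 described genes among them) went into a two-sided test by limma 3.58.1 (R 4.3.3) on log2(FPKM + 1). All 6 groups shared 1 fit with an intensity trend, and p-values were adjusted per comparison by Benjamini-Hochberg over all genes tested. The code was tested on simulated data. Genes named are the 10, the genes of 5 pathway lists called before or after median-of-ratios scaling, with values for at most 8 of a list by size of difference, the 3 genes most like each of 5 of the 10 (those for Alox5 are not reported here), and markers. The genes and lists were chosen with earlier results of these data known. Of the marker lists, resident peritoneal macrophage markers summed to 174 to 743 FPKM, mostly Fn1, and platelet markers to 90.2 to 344, mostly Pf4. Eosinophil markers summed to 0.731 to 5.48 FPKM. Mast cell markers summed to 0.494 to 5.25 FPKM in control and to 6.59 to 24.7 with LPS, where Hdc carried the rise. Alternatives covered pseudocount, filter, scaling, variance trend, library weights, replicate block, threshold, exon sums, groups fitted and left-out libraries. Python 3.11.15 and pandas 2.3.3 were used. Splicing was not analysed here.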

Additional observations from a re-analysis of the deposited data

How the results depend on the processing

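For 110 gene results, 2160 values under alternatives gave 2091 on the same side of the threshold, 46 no longer called, 23 newly called and 0 reversed, and 92 results kept their side in all. The number of the 10 genes called with LPS was 8 to 10 in TLR4-WT, 8 to 8 in TLR4-K730R and 7 to 8 in TLR4-K810R when 1 library was left out. Leaving out 1 library gave 0 to 1 in K730R or K810R against WT in control cells, in K810R against WT with LPS, and in K810R against K730R with and without LPS. At an adjusted p under 0.05 the counts were 1 and 3 for K730R and K810R against WT in control cells, 2 for K810R against WT with LPS, 2 for each comparison of K810R with K730R, and 1 for the response of K810R against that of WT. Library weights gave 1 for K730R against WT in control cells, 2 for K810R against K730R with LPS and 1 for the response of K810R. Pseudocounts of 0.1 and 0.5 each gave 2 for K810R against WT in control cells and 0 with LPS. For K810R against WT with LPS the count was 0 also with no filter, first-exon or last-exon sums alone, and only the groups compared. It was 0 with a mean of at least 5 FPKM too, but this filter removed Pla2g16, so its call was not tested there. First-exon sums and only the groups compared gave 0 for K810R against K730R in control cells, as did last-exon sums, where Ptges has no value and was not tested, and only the groups compared gave 0 for K810R against WT in control cells. Median-of-ratios scaling gave 1 for K810R against K730R with LPS. It moved the split of all LPS calls in TLR4-WT from 1012 higher of 3328 to 1496 higher of 2866, in TLR4-K730R from 905 of 3473 to 1497 of 2797, and in TLR4-K810R from 881 of 2797 to 1196 of 2322. Of all genes, the calls in K810R against WT with LPS were 13, 366 with library weights, 213 at 0.05, 284 without the third WT library, 1 to 6 without any other library and 0 with only the groups compared. In K810R against WT in control cells they were 153, and 33 to 342 over the alternatives, with 50 to 101 without any 1 library except the second K810R one (123). The other genotype calls ranged from 11 to 61 (26; K730R against WT in control cells), 0 to 2 (0; with LPS), 1 to 45 (8; K810R against K730R in control cells), 0 to 118 (6; with LPS), 2 to 7 (4; response of K730R) and 6 to 57 (12; response of K810R). Where a left-out library leaves 2 in a group, the spread is shared over all groups.

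With the replicate number as a block, 9, 8 and 9 genes called with LPS became 9, 9 and 8, and Pla2g16 in K810R against WT with LPS was no longer called, so the count was 0. Libraries of the same number did not deviate together (r from -0.32 to 0.092 over pairs of groups), so no pairing by number was seen. The labels do not say whether these libraries have anything else in common. The cause of the changes was not tested.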
